A study of Mus musculus with 6 samples.

Results

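The miR-34 and miR-449 family was followed through 6 small RNA libraries from mouse heart cardiomyocytes. Its members were taken by name: miR-34a, miR-34b, miR-34c, miR-449a, miR-449b and miR-449c. They fill 11 of 1952 mature microRNA (miRNA) rows, since most hairpins yield a 5p and a 3p arm. At least 1 read was counted for 9 of the 11 rows, and miR-449b and miR-449c-3p had none in any library. All mice were of the C57BL/6 strain. Adult hearts gave 2 wild-type and 2 LncSync-/- libraries, and hearts at e13.5 (an embryonic stage) gave 1 library of each genotype. LncSync-/- mice, called knockout here, lack a long non-coding RNA. The sources used here do not give the adults' age, the animals behind each library or how cardiomyocytes were separated. Nothing says that libraries of a group came from different animals, and the tests rest on their spread alone, which may be technical.

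MicroRNAs guide Argonaute proteins to messenger RNAs, mainly through pairing of the seed, the bases near the 5′ end of the mature strand. The tumour suppressor p53 activates transcription of miR-34a and of the joint miR-34b and miR-34c transcript, and the family represses cell-cycle and survival genes. In the mouse heart miR-34a is known for its increase with age. miR-34b, miR-34c and the miR-449 miRNAs are best known from multiciliated epithelia and testis, where they act in the making of motile cilia.

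The sequences below show why these miRNAs form a family, with bases 2 to 8 in capitals. They were read from RefSeq (GRCm38.p6), which held 9 of the 11 rows (no entry for miR-34c-5p and miR-449b), and are written 5′ to 3′.
miR-34a-5p: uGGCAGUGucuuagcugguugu
miR-34b-5p: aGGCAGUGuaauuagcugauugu
miR-449a-5p: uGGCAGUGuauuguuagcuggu
miR-449c-5p: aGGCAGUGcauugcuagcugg
These 4 strands carry the same seed. No other of the 1679 mature names in that table does, and miR-34c-5p and miR-449b are not among those names. Counted base by base from the 5′ end, miR-34a-5p matched miR-449a-5p at 15 of 22 positions and miR-34b-5p at 11 of 22. miR-449a-5p and miR-449c-5p matched at 18 of 21.

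The 3p arms carry other seeds. They are shown because the miR-34b hairpin gave more reads from this arm in adults, as described further on.
miR-34a-3p: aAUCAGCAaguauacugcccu
miR-34b-3p: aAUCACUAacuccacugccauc
miR-34c-3p: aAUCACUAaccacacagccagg
miR-34b-3p and miR-34c-3p share a seed with each other, found in no other mature miRNA of the table, and match at 17 of 22 positions. The seed of miR-34a-3p differs from theirs.

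The members come from 3 places in the genome (GENCODE M21, GRCm38). Mir34a lies on the plus strand at chr4:150068454-150068555 and overlaps an exon of Gm37795, annotated as TEC, a class of transcripts still without experimental proof. Mir34c (chr9:51103034-51103110) and Mir34b (chr9:51103562-51103645) lie on the minus strand with 451 bases between them, inside an intron of Btg4, which is on the other strand. Mir449c (chr13:113035983-113036091), Mir449b (chr13:113037419-113037498) and Mir449a (chr13:113037534-113037624) lie in an intron of Cdc20b, on its own strand.

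Levels are given as CPM, a row's read count scaled to the same total of mature miRNA counts in every library. Mature counts totalled 14347091 to 17933518 in the adult libraries, 8944552 in the e13.5 wild-type and 2671957 in the e13.5 knockout library. A count of 0 allows up to 3 counts, or 0.167 to 0.209 CPM in adults and 0.335 and 1.12 CPM at e13.5. Such floors, and the intervals given below, take in counting error alone. The e13.5 knockout library stood apart in depth and in its scaling factor (2.166, against 0.5675 to 1.242 in the others), so results with and without it are given. Erythroid miRNAs (miR-451a, miR-144 and miR-486a) also set it apart from the other embryonic library, at 14321 against 748 CPM. This sum does not show that every arm differed. Of 5 erythroid arms 2 were higher at e13.5 by edgeR (miR-451a and miR-144-3p), 2 were lower (miR-486a-5p and miR-486a-3p) and 1 did not pass. Cardiomyocyte miRNAs (miR-1a, miR-133a, miR-133b, miR-208a, miR-208b and miR-499; 12 of 13 arms had counts, miR-133b-5p had none) summed to 281714 to 395268 CPM in adults, 146153 in e13.5 wild type and 98601 in e13.5 knockout. Of the other cell types' lists, smooth muscle miRNAs (miR-143 and miR-145a) summed to 71127 to 115721 CPM in adults and 351025 and 211633 at e13.5, but 0 of 4 arms were higher at e13.5 by edgeR and 2 were lower (miR-145a-5p and miR-145a-3p). Neuronal miRNAs (miR-9 and miR-124) summed to 78.7 to 155 CPM in adults and 238 and 306 at e13.5, with 0 of 2 tested arms higher and 1 lower (miR-9-3p). Endothelial miRNAs (miR-126a) summed to 16487 to 31067 CPM and 18992 and 16342, with 2 of 2 arms lower at e13.5. Fibroblast miRNAs (miR-199a, miR-199b and miR-214) summed to 1932 to 3708 CPM and 4733 and 3226, with 1 of 5 arms higher and 0 lower. Leukocyte miRNAs (miR-142a, miR-223 and miR-150) summed to 855 to 1708 CPM and 55.9 and 117, with 3 of 6 arms lower and 0 higher. In bulk RNA, fewer cells of a type and less RNA per cell cannot be told apart.

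miR-34a was the adult member of the family. Adult wild types had 866 and 669 CPM of miR-34a-5p and adult knockouts 1471 and 430 CPM, while the e13.5 libraries had 14.3 (wild type) and 14.2 CPM (knockout). Every adult library lay above both embryonic ones, and the embryonic pair was nearly equal. The mean was 60.2 times higher in adults on library totals. It ranked 58th to 79th among the mature miRNAs of the adult libraries, and 291st and 313th at e13.5. With TMM scaling (trimmed mean of M-values, which sets libraries to a common centre), the adult level was 1033 CPM ± 341 (SD, n = 4) and the e13.5 level 9.05 ± 3.51 (SD, n = 2). The log2 fold of e13.5 over adult was −6.83 (SE 0.71, edgeR quasi-likelihood test with genotype in the model, Benjamini-Hochberg adjusted p = 0.000134 over 679 miRNAs).

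miR-34c went the other way. miR-34c-5p had 322 CPM in e13.5 wild type and 251 CPM in e13.5 knockout, while adult wild types had 9.59 and 4.35 CPM and adult knockouts 5.37 and 5.68 CPM. Both embryonic libraries lay above all 4 adult ones, and the mean on library totals was 45.9 times higher at e13.5. It ranked 261st and 309th in the adult wild types, 99th in e13.5 wild type and 129th in e13.5 knockout. After TMM scaling the adults stood at 7.99 CPM ± 2.70 (SD, n = 4) and the embryos at 188 ± 101 (SD, n = 2). The log2 fold was 4.47 (SE 0.55, edgeR adjusted p = 0.000221).

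**Figure D1:**
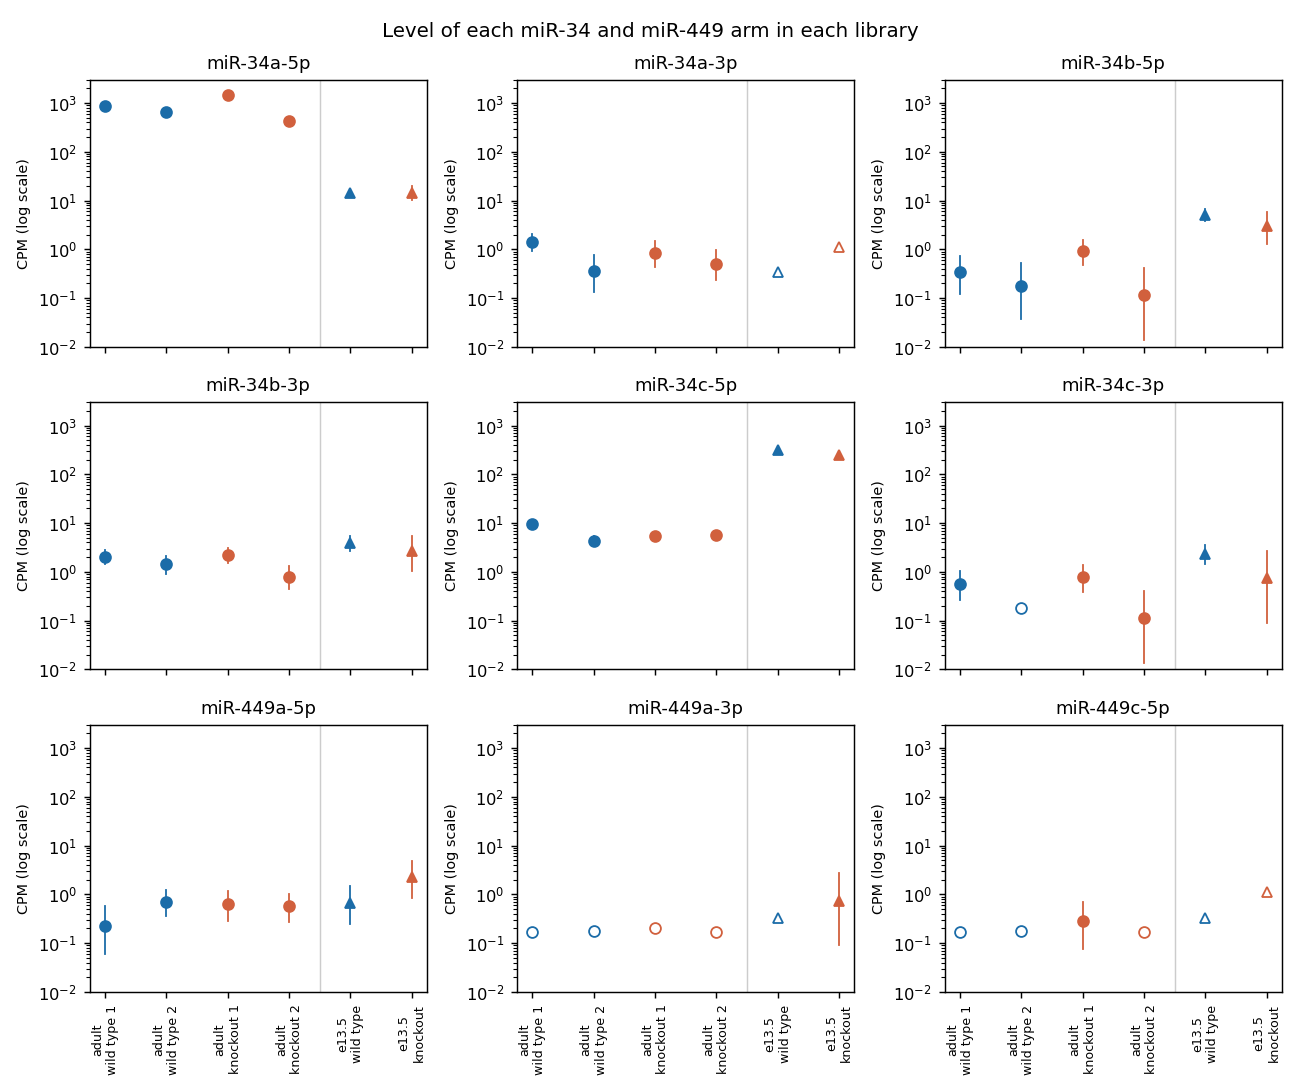
Level of each arm with at least 1 count, in CPM on a log axis, in 4 adult libraries (circles) and 2 e13.5 libraries (triangles), wild type in blue and knockout in orange. Bars are exact 95% counting intervals, and open symbols mark 0 counts, drawn at the floor of 3 counts. miR-34a-5p lies at 430 to 1471 CPM in adults and near 14 CPM at e13.5, and miR-34c-5p at 4.35 to 9.59 and at 251 and 322 CPM.

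Together these arms made up nearly all family reads, so the family changed its main member between stages. miR-34a gave 98.5% and 99.0% of family counts in the adult wild types and 99.3% and 98.3% in the adult knockouts. In the embryo it gave 4.11% in wild type (Wilson 95% interval 3.47 to 4.87) and 5.18% in knockout (3.79 to 7.03). miR-34c gave 93.1% (92.1 to 93.9) and 91.7% (89.5 to 93.5) in these e13.5 libraries, and 0.414% to 1.32% in adults. Within a library this comparison needs no scaling: the ratio of miR-34a-5p to miR-34c-5p counts was 75.7 to 274 in adults, 0.0445 in e13.5 wild type and 0.0566 in e13.5 knockout. CPM of different miRNAs compare read counts, and no correction for unequal capture was made.

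The summed level of the family was 880 and 676 CPM in adult wild types, 1482 and 438 CPM in adult knockouts, and 348 and 275 CPM in e13.5 wild type and knockout. The adult knockout libraries held both the highest and the lowest adult value. No test was made on this sum.

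**Figure D2:**
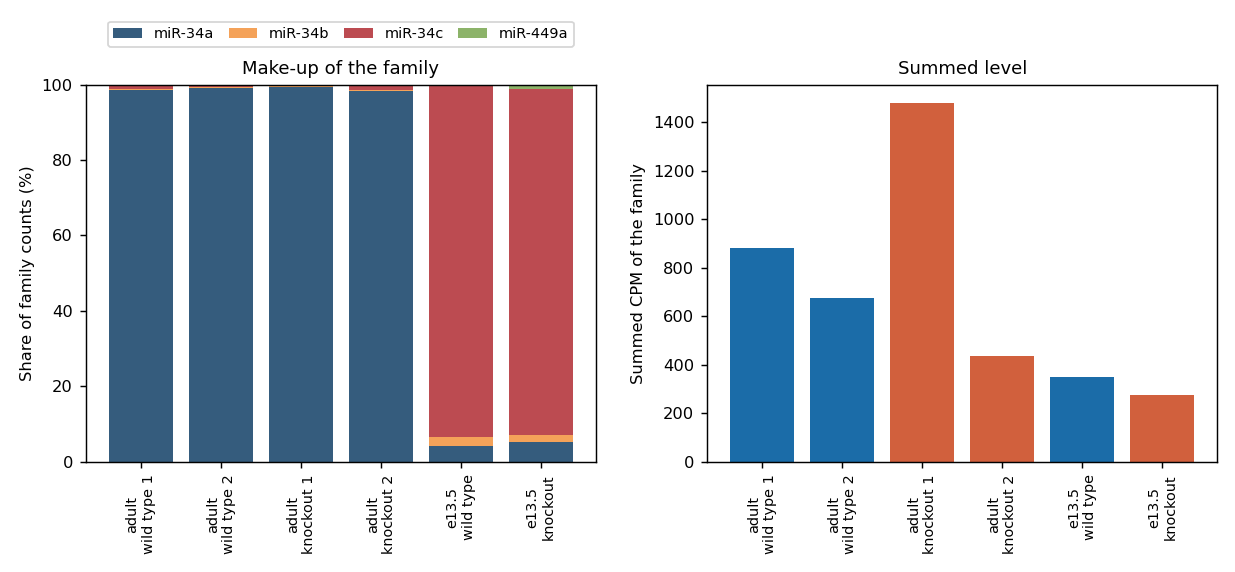
Left, share of all family counts (%) held by each member in each library, and right, summed CPM of the family, with wild type in blue and knockout in orange. miR-34a fills 98.3% to 99.3% of the adult bars and miR-34c 91.7% and 93.1% of the e13.5 bars. miR-449c, with 4 counts in 1 library, is too small to draw.

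miR-34b, from the same locus as miR-34c, was rare at both stages. miR-34b-5p had 46 counts (5.14 CPM) in e13.5 wild type and 8 (2.99 CPM) in e13.5 knockout, and 2 to 13 counts (0.114 to 0.906 CPM) in adults. The embryonic values lay above the adult ones. Any miR-34c-5p reads counted as miR-34b-5p would add to these values, and the handling of reads that match several members is not given. miR-34b-5p did not pass the test (log2 fold 2.64, SE 1.14, edgeR adjusted p = 0.0735). This call depended on the settings: the adjusted p was 0.0288 under median-of-ratios scaling, 0.0191 under library totals, 0.0155 by DESeq2, 0.0312 by limma, 0.00953 with wild-type libraries alone and 0.0108 without adult knockout replicate 1, the adult library with the most miR-34b-5p.

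Its other arm showed less of a difference. miR-34b-3p had 3.91 and 2.62 CPM at e13.5, 2.06 and 1.43 CPM in adult wild types and 2.23 and 0.795 CPM in adult knockouts. After TMM scaling the stages overlapped, and the log2 fold was 0.05 (SE 0.84, edgeR adjusted p = 0.963). Against miR-34c-5p, both miR-34b arms together had 1 read per 35.5 and 44.7 reads at e13.5. In adults the same ratio ran from 1.71 to 6.25.

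The balance of the miR-34b arms was read within each library, where scaling plays no part. The hairpin is shown with both mature arms in capitals, the 5p arm first (RefSeq, minus strand of chr9:51103562-51103645).
Mir34b: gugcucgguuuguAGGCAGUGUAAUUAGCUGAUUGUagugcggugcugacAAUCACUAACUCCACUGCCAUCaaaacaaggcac
The 5p share of its reads was 56.8% in e13.5 wild type (46 of 81, Wilson 95% interval 45.9 to 67.0) and 53.3% in e13.5 knockout (8 of 15, 30.1 to 75.2). It was 14.0% and 11.1% in the adult wild types and 28.9% and 12.5% in the adult knockouts. The groups did not overlap, and the means were 55.0% ± 2.47 (SD, n = 2) and 16.6% ± 8.27 (SD, n = 4). A two-sided exact permutation test gave p = 0.133, the smallest that 15 arrangements of 6 libraries allow. The interval of the e13.5 knockout library overlapped those of adult knockout replicates 1 and 2, so its own 15 reads do not separate it from them. Any miR-34c-5p reads counted as miR-34b-5p would raise the 5p share. miR-34c-5p had 2877 and 671 counts in e13.5 wild type and knockout, and 73 to 172 in adults. How such reads were handled is not given, and their part in the difference was not tested. A change in arm use is therefore not shown.

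The other hairpins favoured the 5p arm at both stages. miR-34a-5p held 99.8% to 99.9% of its arm counts in adults, and all 128 and 38 counts at e13.5. miR-34c-5p held 99.3% and 99.7% at e13.5 and 87.5% to 100% in adults, where adult knockout replicate 1 was lowest (77 of 88). The Mir34a hairpin is given for comparison (plus strand of chr4:150068454-150068555).
Mir34a: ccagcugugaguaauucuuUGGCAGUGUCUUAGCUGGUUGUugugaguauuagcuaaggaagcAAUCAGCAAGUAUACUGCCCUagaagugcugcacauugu
Reads counted on a hairpin but on neither arm were 0 to 8 per library for miR-34a, at most 1 for miR-34c and 0 for miR-34b.

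**Figure D3:**
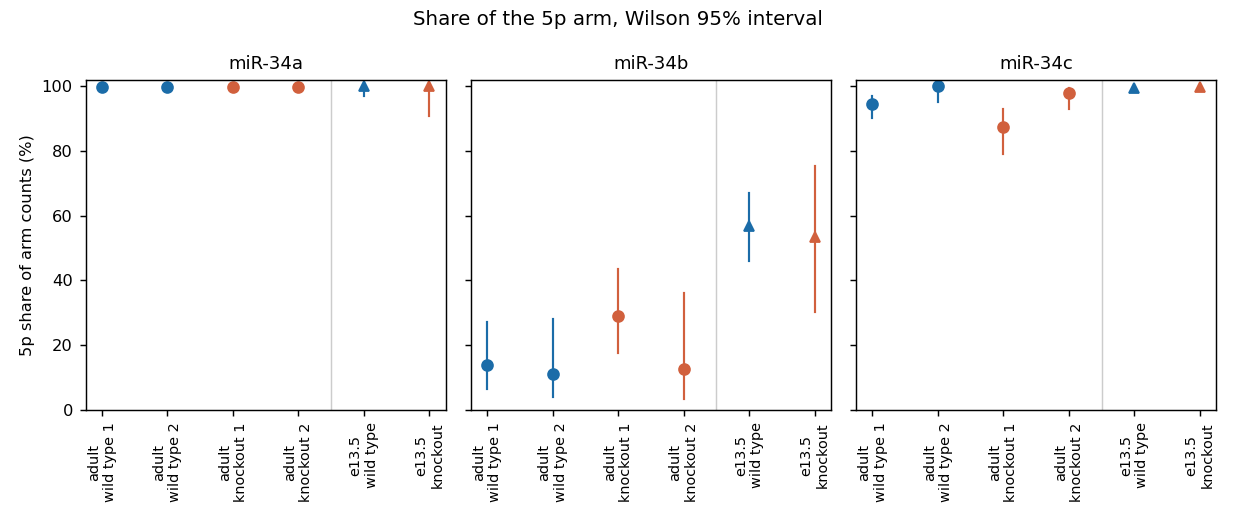
Share of the 5p arm among arm counts (%) in each library for miR-34a, miR-34b and miR-34c, with Wilson 95% intervals as bars, adult libraries as circles and e13.5 libraries as triangles. The miR-34b share is 11.1% to 28.9% in adults and 53.3% and 56.8% at e13.5, and miR-34a stays at or above 99.8%.

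The minor arms of miR-34a and miR-34c were close to the floor. miR-34a-3p had 25 and 6 counts in adult wild types, 12 and 9 in adult knockouts and 0 in both e13.5 libraries. Set against a floor of 3 counts in each e13.5 library, the adult mean was at least 1.06-fold higher, and the e13.5 knockout floor of 1.12 CPM lay above 3 of the 4 adult values. Its fitted log2 fold of −6.50 depends on the prior count, and it passed narrowly (edgeR adjusted p = 0.0411). It did not pass in 9 of 11 other settings that kept it, among them library totals (0.0823), DESeq2 (0.0789), and the fits without adult wild type replicate 2 (0.0675), adult knockout replicate 2 (0.0795), the e13.5 wild-type library (0.247) or the e13.5 knockout library (0.179). miR-34c-3p had 21 and 2 counts at e13.5 and 10, 0, 11 and 2 counts in adults (log2 fold 1.35, SE 1.64, edgeR adjusted p = 0.492).

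The miR-449 members were at the edge of detection. miR-449a-5p had 4 and 12 counts in adult wild types, 9 and 10 in adult knockouts and 6 in each e13.5 library, or 0.223 to 0.715 CPM in adults and 0.671 and 2.25 CPM at e13.5. The stages overlapped, and the log2 fold was 0.11 (SE 1.21, edgeR adjusted p = 0.949). miR-449a-3p had 2 counts, both in e13.5 knockout, and miR-449c-5p had 4, all in adult knockout replicate 1. In adults the order by mean CPM was miR-34a-5p, miR-34c-5p, miR-34b-3p, then miR-34a-3p, miR-449a-5p, miR-34b-5p and miR-34c-3p. The last 4 overlapped in range between 0 and 1.39 CPM, and miR-34b-3p (0.795 to 2.23 CPM) overlapped the upper end of that, so these 5 cannot be ordered.

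Of the 7 arms that passed the filter on low counts, 1 was higher at e13.5 (miR-34c-5p), 2 were lower (miR-34a-5p and miR-34a-3p) and 4 did not pass. Of all tested miRNAs 57.7% differed between stages (29.3% higher and 28.4% lower at e13.5), so a call here is common. Among those calls the higher ones made up 50.8% under TMM, 64.4% under median-of-ratios and 68.7% under library totals. These scalings centred all tested miRNAs at log2 folds of −0.06, 0.72 and 0.93. Relative to that centre miR-34a-5p stood at −6.77, −6.79 and −6.82, and miR-34c-5p at 4.54, 4.53 and 4.59. The median over the 7 arms was 0.11, against −0.06 over all 679.

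Both main calls held in each of 13 other settings. Leaving out a library in turn gave log2 folds from −7.39 to −6.22 for miR-34a-5p and from 3.93 to 5.16 for miR-34c-5p. The fold moved by over 1.5 times for miR-34a-5p without adult knockout replicate 1 (−6.22) and for miR-34c-5p without adult wild type replicate 1 (5.07) or adult knockout replicate 2 (5.16). Without the e13.5 knockout library they were −6.32 and 4.98. Stage cannot be told apart from differences in dissection, cell isolation or sequencing run.

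**Figure D4:**
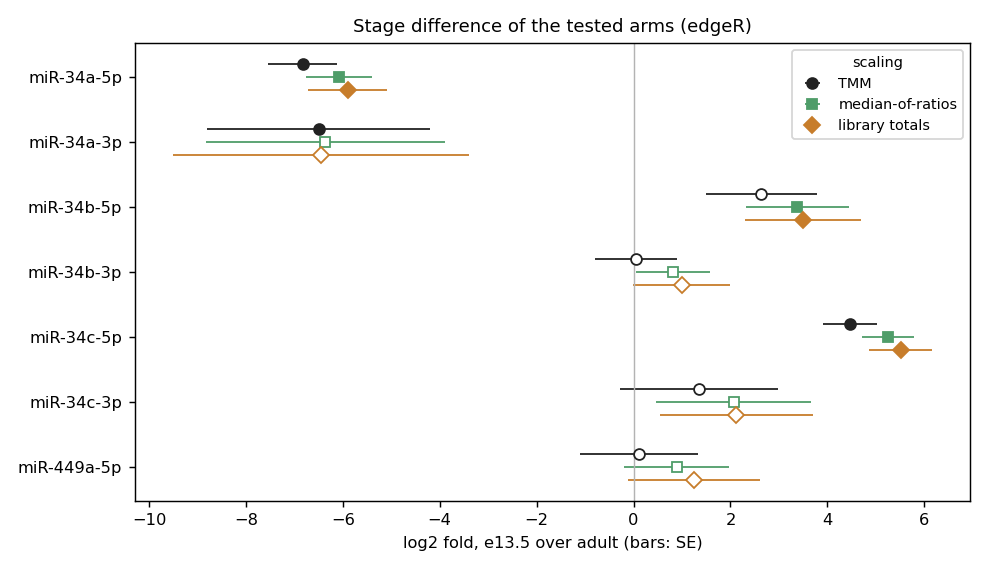
Log2 fold of e13.5 over adult for the 7 tested arms (bars, SE) under 3 scalings, filled where the edgeR adjusted p is under 0.05. miR-34a-5p lies at −6.83 to −5.90 and miR-34c-5p at 4.47 to 5.52, and miR-34b-5p is filled under 2 of the 3.

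Epithelial miRNAs moved with miR-34c. The list of miR-200a, miR-200b, miR-200c, miR-141 and miR-429 had counts for 9 of 10 arms (miR-429-5p had none), and summed to 24.5 to 54.8 CPM in adults, 1453 CPM in e13.5 wild type and 2040 CPM in e13.5 knockout. Of 7 arms tested 6 were higher at e13.5, none was lower and 1 did not pass, where 29.3% of all tested miRNAs were higher. miR-200b-3p and miR-200a-3p, which keep epithelial cells from turning mesenchymal, had stage differences on the log2 scale of 6.25 (SE 0.85, edgeR adjusted p = 0.000407) and 4.46 (SE 0.60, adjusted p = 0.000368). Between the embryonic libraries the 2 readings ran in opposite order, with epithelial miRNAs higher and miR-34c-5p lower in the knockout library. Their part in the miR-34c difference was not tested.

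The question in adults was whether loss of lncSync alters the family. No member arm passed: 0 of 5 tested, where 0.735% of 544 miRNAs differed between genotypes. The smallest unadjusted p among the 5 was 0.462, and DESeq2 and limma also called none of them. For miR-34a-5p the knockouts stood 0.38 above wild type on the log2 scale (SE 0.49), with an edgeR adjusted p of 0.999. The knockout libraries held the highest and the lowest adult value, 1471 and 430 CPM, on either side of the wild types. Without knockout replicate 1 the fold was −0.23, and no direction can be read from it.

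miR-34c-5p was close to level in adults, with a log2 fold of −0.01 (SE 0.61). The values were −0.10 (SE 0.84) for miR-34b-3p, −0.13 (SE 1.25) for miR-34a-3p and 0.54 (SE 1.41) for miR-449a-5p. By edgeR the adjusted p was 0.999 for all 5 arms. Their median was −0.01, against 0.08 over all tested. SEs of this size leave room for 2-fold differences, so equality is not shown. Erythroid and leukocyte miRNAs both put the 4 adult libraries in the same order as miR-34a-5p did. Erythroid miRNAs (all 5 arms with counts) had 22276 CPM in knockout replicate 1, 15709 and 10386 in wild type replicates 1 and 2 and 5651 in knockout replicate 2. Leukocyte miRNAs had 1708, 1187, 859 and 855 CPM in these libraries. This order was not particular to blood miRNAs. The p53 list described further on had it too (13647, 13014, 12002 and 10545 CPM), as had the TMM scaling factors (0.9616, 0.9022, 0.7554 and 0.5675). Cardiomyocyte miRNAs had the reverse order (281714, 316210, 333674 and 395268 CPM), and the remaining lists had other orders. The part of any of these in the spread was not tested.

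At e13.5 each genotype has 1 library, so values are described without a test. miR-34c-5p had 2877 counts in wild type and 671 in knockout, a knockout to wild-type ratio of 0.781 on library totals (95% counting interval 0.717 to 0.849) and 0.448 after TMM scaling (0.411 to 0.487). miR-34a-5p had 128 and 38 counts, at ratios of 0.994 (0.673 to 1.44) and 0.570 (0.386 to 0.824). The size of both ratios thus rests on the scaling, which centred the 565 miRNAs that reached 10 counts in one or both libraries at log2 folds of 0.36 and −0.41. Relative to that centre miR-34c-5p was at −0.72 and −0.75 and miR-34a-5p at −0.37 and −0.38.

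The rarer arms had wider intervals. On library totals the ratio was 0.582 (0.237 to 1.25) for miR-34b-5p, 0.670 (0.251 to 1.53) for miR-34b-3p and 0.319 (0.0362 to 1.30) for miR-34c-3p. Each interval includes 1. After TMM scaling miR-34b-5p stood at 0.334 (0.136 to 0.714) and miR-34b-3p at 0.384 (0.144 to 0.877). miR-34c-3p, with 21 and 2 counts, stood at 0.183 (0.0208 to 0.748). None of these TMM intervals includes 1, so for these arms too the reading rests on the scaling. The share of miRNAs past 4-fold was taken on log2 CPM with a prior count of 2, which draws low counts together. On that measure 0 of the 5 arms that reached 10 counts in one or both embryonic libraries were past 4-fold, with miR-34c-3p nearest at −1.87 on the log2 scale, where 17.3% of miRNAs were. These 5 arms had ratios below 1 on both scales, miR-34a-5p by little on library totals. The rule is met more easily in the deeper wild-type library. Through that library alone passed miR-34b-5p (8 counts in knockout), miR-34b-3p (7) and miR-34c-3p (2). The rule thus favours ratios below 1, and no shared direction can be read from these arms. miR-449a-5p, with 6 counts in each library and so outside that rule, had ratios above 1, at 3.35 (0.895 to 12.5) on library totals and 1.92 (0.513 to 7.18) after TMM scaling.

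Whether the genotype difference changed with stage was tested directly. By edgeR 0 of 7 member arms and 0% of 769 miRNAs passed, and 46 miRNAs had an unadjusted p under 0.05, none of them a member. DESeq2 called 4 and limma 0, again no member. miR-34a-5p had an interaction log2 fold of −1.10 (SE 0.90, adjusted p = 0.917) and miR-34c-5p of −1.09 (SE 1.02, adjusted p = 0.921). For miR-34a-3p, 1 of the 7 arms, 0 counts in both e13.5 libraries left no interaction that could be estimated (SE 527.89). The spread in this fit comes from the adult replicates alone.

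Other miRNAs known to respond to p53 or to act with it were set beside the family. The list was miR-192, miR-194, miR-215, miR-107, miR-145a, miR-605, miR-15a and miR-16, and miR-605 was not analysed here. Of 15 tested arms 7 were lower at e13.5, 2 were higher and 6 did not pass, with a median log2 fold of −3.26 against −0.06 over all tested. The share of all tested miRNAs that differed in either direction was the 57.7% given above, close to that of the list (9 of 15), and 28.4% were lower. miR-16-5p and miR-15a-5p, which restrain the cell cycle, fell by 5.79 (SE 0.62, edgeR adjusted p = 0.000154) and by 6.23 (SE 0.74, adjusted p = 0.000198) on the log2 scale. miR-194-5p stood at −4.92, miR-107-3p at −4.51, miR-145a-3p at −3.71 and miR-145a-5p at −3.26, each past the threshold.

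These 6 arms moved in the direction of miR-34a, and miR-215-5p moved in that of miR-34c, by 2.48 (SE 0.58, edgeR adjusted p = 0.00614). miR-192-5p, which carries the same seed as miR-215-5p, did not pass (0.51, SE 0.45, adjusted p = 0.345). In adults none of 15 list arms passed between genotypes by edgeR, each at an adjusted p of 0.999.

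Across the 6 libraries miR-34a-5p and miR-34c-5p ran against each other, with a Pearson correlation of −0.97 in log2 CPM after TMM scaling. The libraries fall into 2 stages, so such values describe the stage split and carry no p. The 5 of 678 other miRNAs closest to miR-34a-5p were miR-155-5p, miR-31-5p, miR-125b-5p, miR-378a-5p and miR-378d, at 0.9983 to 0.9996. Closest to miR-34c-5p were miR-495-3p, miR-20a-5p, miR-302b-3p, miR-494-3p and miR-1839-5p, at 0.991 to 0.9974. miR-34b-5p followed miR-34c-5p at 0.85, miR-34b-3p at 0.13 and miR-449a-5p at 0.03.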

How the data were processed

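The authors deposited raw read counts per miRNA in 6 small RNA libraries, 1 column per library, with genome build mm10 per the submitters' processing notes. Libraries were made from TRIZOL-extracted, DNase-treated RNA with a NEXTFLEX Small RNA kit, per the labels' protocols. The aligner, the trimming and the handling of multi-mapping reads: not given in the sources used here. Reads of near-identical members could therefore be shared.

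The table held 1234 hairpin and 1974 mature rows. Mature rows were used; 22 whose counts agreed within 1% with another's (total at least 20, counts in at least 3 libraries) were merged, leaving 1952. No column belonged to other samples. Tests ran on the whole table with edgeR 4.0.16 in R 4.3.3 (glmQLFit, two-sided, TMM, filterByExpr minimum count 10), Benjamini-Hochberg adjusted, threshold 0.05. Stage used all 6 libraries with genotype as a term, adult genotype the 4 adult libraries, and the interaction 4 group means. The SE of an edgeR fold is approximate, taken as the absolute log2 fold divided by the square root of the test's F statistic. DESeq2 1.42.0, limma 3.58.1 and other scalings were alternatives. Scripts were tested on simulated data. A prior count of 2 entered log2 CPM for limma, the correlations and the e13.5 log2 differences. The edgeR fits kept that tool's default prior.

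Every member arm is named. Of other miRNAs the rule named p53-list arms of at least 100 mean CPM and the 5 most alike. Marker-list arms given with a stage result were named outside that rule. The members and lists were chosen with earlier results of these data known. Summed CPM of marker lists describe the other cell types a heart sample can hold.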

Additional observations from a re-analysis of the deposited data

How the results depend on the processing

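The stage calls of miR-34a-5p and miR-34c-5p kept direction and threshold in all 13 other settings. Member arms past the threshold numbered 2 to 4 for stage, against 3, and 0 in every setting for adult genotype and interaction. Over all miRNAs, leaving out a library gave 261 to 381 stage calls (main 392; 261 without the e13.5 knockout library), 5 to 47 adult genotype calls (main 4) and 0 to 87 interaction calls (main 0). Without adult knockout replicates 1 and 2 these were 35 and 47, and 87 and 40. Adult calls rose to 9 without a filter on low counts; interaction calls were 2 without it, 1 with library totals and 4 by DESeq2. The causes were not tested.

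Some values that passed no test changed sign. Leaving out a library gave, for stage, −0.57 to 0.59 (miR-34b-3p), −0.47 to 2.72 (miR-34c-3p) and −0.14 to 0.72 (miR-449a-5p, −0.12 with wild-type libraries only). For adult genotype it gave −0.23 to 0.73 (miR-34a-5p), −0.86 to 0.94 (miR-34a-3p), −0.52 to 0.14 (miR-34b-3p), −0.57 to 0.48 (miR-34c-5p) and −0.15 to 1.64 (miR-449a-5p). For the interaction it gave −0.76 to 1.19 (miR-449a-5p) and −0.88 to 0.82 (miR-34a-3p, which cannot be estimated with 0 counts at e13.5). Adult miR-34a-3p was 0.06 by limma, and adult miR-34a-5p was −0.04 over all libraries. The median genotype log2 fold of all miRNAs at e13.5, −0.41 under TMM, became −0.28 under median-of-ratios and 0.36 under library totals.

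The labels do not say whether the adult replicate numbers pair the libraries. Deviations of same-numbered libraries correlated at 0.009 over 291 miRNAs, which with 2 libraries per genotype cannot decide it. With the replicate number as a block, 5 miRNAs and 0 member arms passed, and miR-34a-3p was 0.07. Leaving out an adult library leaves a lone sample in its group, assumed to vary like the others. Depth limits the miR-449 arms and all 3p arms, with at most 37 counts per library.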
